A study of Mus musculus with 7 samples.

Results

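The loci described are those of the fibrillar collagen genes *Col1a1*, *Col1a2* and *Col3a1*, the type V collagen genes *Col5a1* and *Col5a2*, and the type VI collagen genes *Col6a1*, *Col6a2* and *Col6a3*, read by ATAC-seq during the reprogramming of mouse embryonic fibroblasts (MEFs) towards pluripotency. ATAC-seq marks open chromatin with a transposase that inserts sequencing adapters where DNA is accessible, and each library was deposited as a list of peaks, the stretches where insertions pile up. Every peak that lay within the gene body of 1 of the 8 genes or within 20 kb on either side was taken, with the gene positions of the GENCODE annotation on the mouse build mm10. Overlapping peaks of different libraries were joined into 66 regions, out of 76506 regions within 20 kb of any protein-coding gene and 104346 regions in the whole series. Of the 66, 10 lay around *Col1a1* and 56 around the other 7 genes. The windows of *Col3a1* and *Col5a2*, whose genes are 24.6 kb apart, share 2 regions, which were counted once in the sums and under both genes where genes are given singly.

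The series has 7 libraries, 1 per time-point: untreated MEFs (day 0), MEFs given 2 µg/mL doxycycline for 1, 2, 3, 6 or 9 days, and untreated embryonic stem cells (ESCs) of the Bruce-4 line. The MEFs came from mice with the Col1a1tm1(tetO-Pou5f1,-Klf4,-Sox2,-Myc)Hoch allele (background B6;129S4) crossed to mice with the Gt(ROSA)26Sortm1(rtTA*M2)Jae allele (background B6.Cg). All 6 MEF libraries, day 0 included, therefore carry a doxycycline-inducible cassette of Oct4, Klf4, Sox2 and c-Myc (OKSM) in the *Col1a1* locus itself, and the rtTA transactivator at ROSA26. The labels give the ESCs this genotype too, although Bruce-4 is a separate line, so whether the ESC library carries the cassette cannot be read from them. Where in the *Col1a1* locus the cassette sits is not given in the labels, so *Col1a1* is set beside the other 7 genes throughout. No time-point was replicated, so no difference between libraries was tested, and the exact (Clopper-Pearson) 95% intervals given with shares cover counting error only. The peak lists hold positions without read counts, and reads of all libraries had been downsampled to the same depth before calling. A missing peak means that none was called at that depth, and not that the chromatin was closed. Fewer cells with an open site cannot be told apart from a less open site in every cell.

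Fibrillar collagens are the rope-like proteins of connective tissue. Type I collagen, the main one of skin, bone and tendon, is a trimer of the *Col1a1* and *Col1a2* chains, and type III collagen, made from *Col3a1*, joins it in skin and vessel walls. Type V collagen, from *Col5a1* and *Col5a2*, is built into the same fibrils and limits their diameter, while type VI collagen, whose chains *Col6a1*, *Col6a2* and *Col6a3* encode, forms beaded filaments that tie cells to the surrounding matrix. Fibroblasts are the main source of these proteins, and their genes are among the best known markers of the mesenchymal state that cells leave during reprogramming.

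The sequences on which the description turns are given here from the mm10 reference, 5′ to 3′ on the strand of the gene, in lower case with motif matches in capitals. The first 3 are from *Col1a1*: the upstream region that was open in every MEF library, the day 0 peak just before the start site, and the intron 1 region that was open on every doxycycline day and in neither day 0 MEFs nor ESCs. The fourth lies directly before the start of the main *Col1a2* transcript, in a region open in every MEF library, and the last 3 are the regions outside *Col1a1* that shared the pattern of the intron 1 region. For each region the part outside UTRs that all of its peaks have in common is printed, cut to its middle 300 bases where it is longer, and for the *Col6a3* regions, whose peaks have no such part, the middle 300 bases of the joined region.

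*Col1a1* upstream, chr11:94929050-94929237, plus strand: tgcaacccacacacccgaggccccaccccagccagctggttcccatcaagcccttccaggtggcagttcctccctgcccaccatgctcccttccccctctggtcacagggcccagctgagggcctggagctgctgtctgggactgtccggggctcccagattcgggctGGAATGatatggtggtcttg
*Col1a1* day 0 promoter peak, chr11:94935988-94936209, plus strand: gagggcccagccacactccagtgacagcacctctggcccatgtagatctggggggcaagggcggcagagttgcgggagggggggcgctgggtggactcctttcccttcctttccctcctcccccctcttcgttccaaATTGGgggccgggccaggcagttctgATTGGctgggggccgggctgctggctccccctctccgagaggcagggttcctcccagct
*Col1a1* intron 1, chr11:94937039-94937288, plus strand: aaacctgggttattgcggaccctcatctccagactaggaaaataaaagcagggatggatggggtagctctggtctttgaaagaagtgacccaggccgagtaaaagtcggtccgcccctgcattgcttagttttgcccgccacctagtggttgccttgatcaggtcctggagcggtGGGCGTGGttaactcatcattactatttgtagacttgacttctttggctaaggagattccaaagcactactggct
*Col1a2* before the main start, chr6:4505370-4505492, plus strand: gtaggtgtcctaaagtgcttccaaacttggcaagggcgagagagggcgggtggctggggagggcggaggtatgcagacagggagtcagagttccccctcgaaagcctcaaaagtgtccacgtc
*Col6a1* upstream, chr10:76730247-76730546, minus strand: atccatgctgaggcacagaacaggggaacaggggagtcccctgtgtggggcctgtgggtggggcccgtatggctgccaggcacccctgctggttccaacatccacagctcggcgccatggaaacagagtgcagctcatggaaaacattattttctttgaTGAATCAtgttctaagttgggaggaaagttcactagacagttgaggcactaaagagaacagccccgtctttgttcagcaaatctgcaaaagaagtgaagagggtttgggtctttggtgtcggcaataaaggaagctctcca
*Col6a3* first intronic region, chr1:90823573-90823872, minus strand: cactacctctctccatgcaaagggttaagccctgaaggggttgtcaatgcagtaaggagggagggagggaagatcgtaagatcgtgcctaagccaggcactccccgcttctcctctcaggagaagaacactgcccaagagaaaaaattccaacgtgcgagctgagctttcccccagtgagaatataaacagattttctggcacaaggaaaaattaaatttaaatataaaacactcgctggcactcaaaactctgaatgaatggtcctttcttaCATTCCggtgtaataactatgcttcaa
*Col6a3* second intronic region, chr1:90771076-90771375, minus strand: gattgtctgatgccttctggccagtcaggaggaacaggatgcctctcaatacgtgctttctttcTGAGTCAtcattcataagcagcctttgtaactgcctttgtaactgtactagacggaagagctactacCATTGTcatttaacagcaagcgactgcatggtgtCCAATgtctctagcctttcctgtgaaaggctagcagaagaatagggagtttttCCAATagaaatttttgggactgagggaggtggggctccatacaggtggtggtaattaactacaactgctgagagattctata

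Capitals mark matches, on either strand, to the letters TGANTCA (AP-1, the Fos and Jun dimer), GGAATG (the TEAD factors), CCAAT (the CCAAT box), ATGCAAAT (the octamer read by Oct4), CATTGT (the SOX factors), GGGNGTGG (the Krüppel-like factors) and CACGTG (the E-box of c-Myc). The *Col1a1* upstream sequence held a TEAD match, the day 0 promoter peak 2 CCAAT boxes, the intron 1 sequence a KLF match and the *Col1a2* sequence none of the 7 motifs. The *Col6a1* sequence and the second *Col6a3* sequence each held an AP-1 match, the latter with 2 CCAAT boxes and a SOX match, and the first *Col6a3* sequence held a TEAD match. In the middle 300 bp of all regions near protein-coding genes these letters are common, with 20.6% holding AP-1, 20.3% TEAD, 32.1% CCAAT, 2.84% the octamer, 15.3% SOX, 15.7% KLF and 5.46% the E-box. Over the 66 collagen regions the shares were 25.8% for AP-1, 24.2% for TEAD, 25.8% for CCAAT, 1.52% for the octamer, 12.1% for SOX, 16.7% for KLF and 3.03% for the E-box. The 18 collagen regions with a peak on day 0 and none on any doxycycline day held AP-1 in 33.3%, against 31.5% of the same kind of region near all protein-coding genes, a share close to that of other regions of the kind. Such matches describe the letters and do not show that a factor was bound.

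The collagen windows together held more peaks per length than protein-coding genes at large in the MEF libraries, and fewer in ESCs. Around the 8 genes, 43 peaks were called on day 0. The doxycycline libraries of days 1, 2, 3, 6 and 9 gave 33, 24, 33, 27 and 22, and the ESCs gave 5. The libraries themselves differed in size, from 61241 peaks on day 0 and 33007 to 48087 on the doxycycline days to 27074 in ESCs, and part of the fall from day 0 runs with those totals. Of 10000 peaks of a library, the collagen windows took 7.02 on day 0, 6.02 to 7.23 on the doxycycline days and 1.85 in ESCs. The doxycycline days thus stayed close to day 0 by this measure, with day 6 the lowest of them, and the ESCs stood apart.

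The ESCs also stood apart per length of window. The collagen windows held 5.36 peaks per 100 kb on day 0 and 0.624 in ESCs, and the windows of all protein-coding genes held 3.26 and 1.51. On day 0 the single genes ranged from 3.11 peaks per 100 kb at *Col5a1*, below the protein-coding value, over 3.39 at *Col6a3* and 3.55 at *Col5a2* to 9.12 at *Col1a2* and 15.8 at *Col1a1*. The density around the collagens was therefore 1.65 times that around all protein-coding genes on day 0, between 1.34 times (day 6) and 1.63 times (day 1) on the doxycycline days, and 0.413 times in ESCs. Without *Col1a1*, the other 7 genes held 4.56 peaks per 100 kb on day 0, 2.42 to 3.89 on the doxycycline days and 0.537 in ESCs, so the fall did not rest on the locus with the cassette. Inside the gene bodies alone, without the flanks, day 0 was not the highest, with 18 peaks beside 20 for day 1 and 21 for day 3, while the ESCs kept 2.

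**Figure D1:**
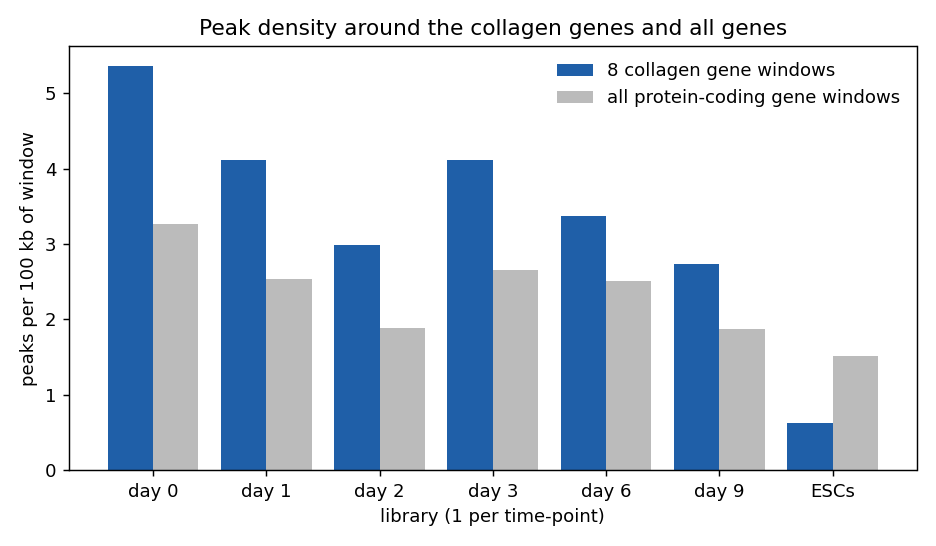
Peaks per 100 kb of window (y axis) in each of the 7 libraries (x axis), with blue bars for the windows of the 8 collagen genes and grey bars for those of all protein-coding genes. The blue bar is above the grey one in every MEF library, 5.36 against 3.26 on day 0, and below it in ESCs, 0.624 against 1.51.

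All 8 genes had fewer peaks in ESCs than on day 0, where 70.4% of the 18392 protein-coding genes with a peak in either library did so. *Col1a1* had 9 peaks on day 0, 5 after a day of doxycycline, 4 at each later doxycycline time-point, and 1 in ESCs. *Col1a2*, its partner in type I collagen, had 7, 4, 2, 3, 3 and 3 peaks on days 0, 1, 2, 3, 6 and 9, and 0 in ESCs. By raw count both type I genes were thus at their highest on day 0 and already lower on day 1. On no later day did either return to its day 0 count. The later libraries also held fewer peaks in all, 45709 on day 1 beside 61241 on day 0, and these counts are not scaled for that.

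*Col3a1* had 4 peaks on day 0, then 1, 0, 2, 0 and 1 over the doxycycline days, and 1 in ESCs. It was the barest of the 8 loci during doxycycline. The type V genes ran otherwise, since *Col5a1* had 6 peaks on day 0 and 7, 4, 7, 6 and 3 on the doxycycline days, with 2 in ESCs. *Col5a2* had 6 on day 0, then 7, 3, 5, 1 and 2, with 1 in ESCs.

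Of the type VI genes, *Col6a1* had 3 peaks on day 0, then 2, 2, 3, 3 and 3, and 0 in ESCs. *Col6a2* had 5 on day 0, then 2, 4, 3, 4 and 3, with 1 in ESCs, and *Col6a3* had 4 on day 0, then 6, 5, 7, 6 and 3, with 0 in ESCs. *Col6a3* was the gene with more peaks on 4 of the 5 doxycycline days than on day 0, in libraries that held fewer peaks in all. *Col5a1* and *Col5a2* were above day 0 on day 1, and *Col5a1* also on day 3.

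**Figure D2:**
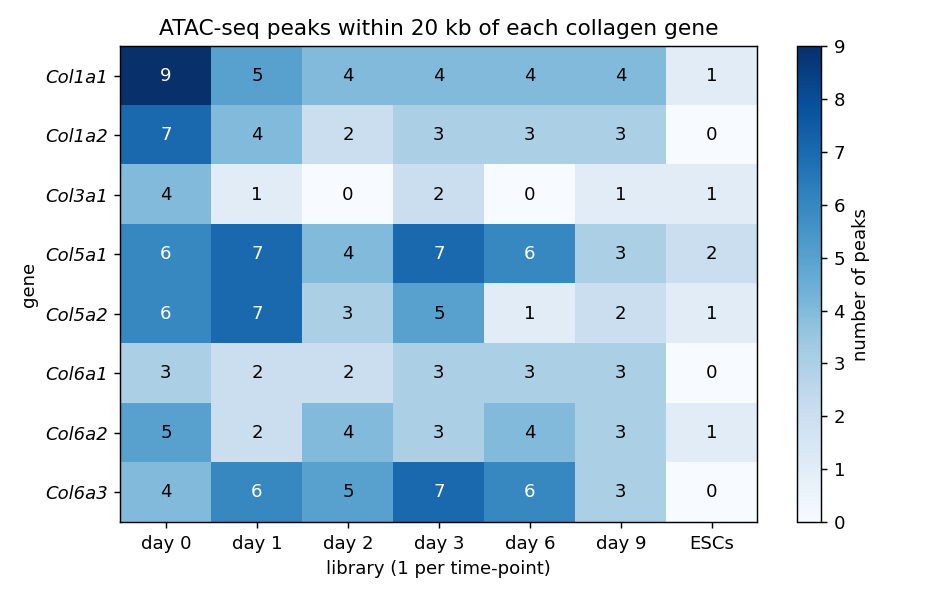
Number of peaks within 20 kb of each collagen gene (rows) in each library (columns), printed in the cells and shown by the depth of blue. The ESC column holds 0 to 2 peaks per gene, and *Col6a3* holds more peaks on days 1, 2, 3 and 6 than on day 0.

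Start sites, where transcription begins, were read next. A peak within 1000 bp of the annotated start was present for 8 of 8 genes on day 0, beside 54.5% of 21951 protein-coding genes. At the doxycycline time-points it was present for 5 genes (day 1, beside 50.7% of protein-coding genes), 5 (day 2, 46.9%), 7 (day 3, 51.4%), 6 (day 6, 52.6%) and 5 (day 9, 48.8%). In ESCs 2 of the 8 had one, beside 46.0% of protein-coding genes. Of the 8 promoters with a day 0 peak, 6 had none in ESCs, whereas 20.7% of the 11972 protein-coding genes with a day 0 promoter peak lost theirs.

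The 2 promoters open in all 7 libraries were those of *Col6a2* and *Col5a1*. The *Col6a2* peak spanned its start site in every library and stayed wide, at 680 bp on day 0, 605, 596, 664, 578 and 609 bp on days 1, 2, 3, 6 and 9, and 469 bp in ESCs. The *Col5a1* peak was 645, 545, 338, 664, 271, 205 and 204 bp at its widest in the same order, so it was narrower on days 6 and 9 and in ESCs than in the other libraries. In ESCs and on day 9 the *Col5a1* peak did not reach the start site but lay 208 bp and 155 bp from it. On day 2 it was split into a pair of peaks around the site, the nearer 3 bp away. The joined *Col5a1* region also overlaps another annotated gene, *2810430I11Rik*, and peak positions do not tell to which gene a peak there belongs. Peak width is given as the files have it, and the reads behind a wide or narrow peak are unknown.

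The promoters of *Col5a2* and *Col1a2* were open in every MEF library and not in ESCs. The *Col5a2* peak covered the start site and was 611, 561, 659, 518, 597 and 200 bp wide on days 0, 1, 2, 3, 6 and 9, day 9 being the narrowest. The *Col1a2* peak was 530, 598, 543, 475, 493 and 469 bp wide on those days. It lies over the start of the main transcript, which is 679 bp into the annotated gene because another annotated transcript begins further upstream. In ESCs the nearest peak was 145070 bp from the *Col5a2* start and 96081 bp from the *Col1a2* start.

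The promoters of *Col3a1*, *Col6a1* and *Col6a3* were called open only now and then after day 0. *Col3a1* had a start-site peak of 229 bp on day 0 and of 504 bp on day 3, and none within 1000 bp in the other 5 libraries. *Col6a3* likewise had one of 552 bp on day 0 and of 200 bp on day 3. *Col6a1* had one of 511 bp on day 0 and of 430 bp on day 6. Each of the 3 genes thus had a start-site peak on a single doxycycline day, day 3 for *Col3a1* and *Col6a3* and day 6 for *Col6a1*. The day 3 library was the largest of the doxycycline libraries with 48087 peaks, while day 6 held 44855, fewer than the 45709 of day 1. Whether library size plays a part in these single calls was not tested.

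*Col1a1* stood apart from the other 7 at its start. Its 2 day 0 promoter peaks lay on either side of the start site, from 236 to 15 bp before it and from 41 to 265 bp after it, the second over exon 1, and were 222 bp and 225 bp wide. No peak covered the site itself in any library. On each doxycycline day both of these were gone and the nearest peak lay inside intron 1, beginning 655, 815, 605, 637 and 637 bp after the start on days 1, 2, 3, 6 and 9, so that *Col1a1* counted as open within 1000 bp in all 6 MEF libraries through peaks at different positions. In ESCs the nearest peak was 21843 bp away. When a peak has to cover the annotated gene start, *Col1a1* and *Col1a2* drop out and 6 genes are open on day 0, beside 43.6% of protein-coding genes. Over the doxycycline days the count was then 3 (day 1, beside 39.0%), 2 (day 2, 34.9%), 5 (day 3, 40.1%), 4 (day 6, 41.6%) and 2 (day 9, 37.8%), and in ESCs it was 1, beside 33.2%. By this stricter count the 8 genes were thus below the background share on days 1, 2 and 9 and in ESCs, and each count rests on few genes. It also rests on the annotated start of *Col1a2*, 679 bp before the start of its main transcript. Over the main transcript start the counts were 7 on day 0, 4, 3, 6, 5 and 3 on days 1, 2, 3, 6 and 9, and 1 in ESCs. No background share is given for that definition.

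Of the *Col1a1* regions, 2 were open on every doxycycline day and in neither day 0 MEFs nor ESCs. The first, chr11:94936829-94937436 in intron 1, was 410, 391, 607, 564 and 576 bp wide on days 1, 2, 3, 6 and 9, and its shared part is the intron 1 sequence printed above. The second, chr11:94952087-94952710, lies inside exon 51, the last exon, within the 1426 bp of 3′ UTR and 332 bp before the end of the gene, and was 301, 500, 503, 585 and 605 bp wide. They lie at opposite ends of a gene of 16.8 kb. No region of *Col1a1* was seen on some doxycycline days alone.

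Of all regions near protein-coding genes, 2.72% had this pattern, and 10.6% of genes had 1 or more such regions and 1.48% had 2 or more. Among the 8 collagens, 3 genes had 1 or more and 2 genes, *Col1a1* and *Col6a3*, had 2. Of the 10 *Col1a1* regions 2 had the pattern, and of the 56 regions of the other 7 genes 3 had it. *Col1a1* was thus not the sole collagen locus with such regions, and the counts are too small to set it apart from *Col6a3*. Among peaks at least 300 bp wide, *Col1a1* kept 2 such regions and the other 7 genes together held 2. A *Col6a3* region with peaks of 233, 200 and 229 bp on days 1, 2 and 9 falls below that width.

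The 3 regions outside *Col1a1* were in type VI genes. Around *Col6a1*, chr10:76730061-76730692 lies 4209 bp before the start site, over the long non-coding RNA gene *Gm48276*, and was 533, 569, 593, 613 and 469 bp wide on days 1, 2, 3, 6 and 9. In *Col6a3*, chr1:90770888-90771563 lies in an intron 72745 bp after the start and was 384, 484, 596, 320 and 435 bp wide, the day 6 call being split into 2 peaks. The other *Col6a3* region, chr1:90823447-90823998 in an intron 20248 bp after the start, was 233, 200, 449, 552 and 229 bp wide, and its day 1 and day 2 peaks did not overlap each other but were joined by the wider ones of days 3 and 6. That region is accordingly the least certain of the 5 as 1 element.

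The cassette is part of the *Col1a1* locus in all 6 MEF libraries, and doxycycline both induces it and is present in just those 5 libraries, so what the treatment did at the native sequence and what it did at the inserted one cannot be told apart here. The pattern at *Col6a1* and *Col6a3*, which carry no insert by the labels, was measured in the same 5 libraries.

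**Figure D3:**
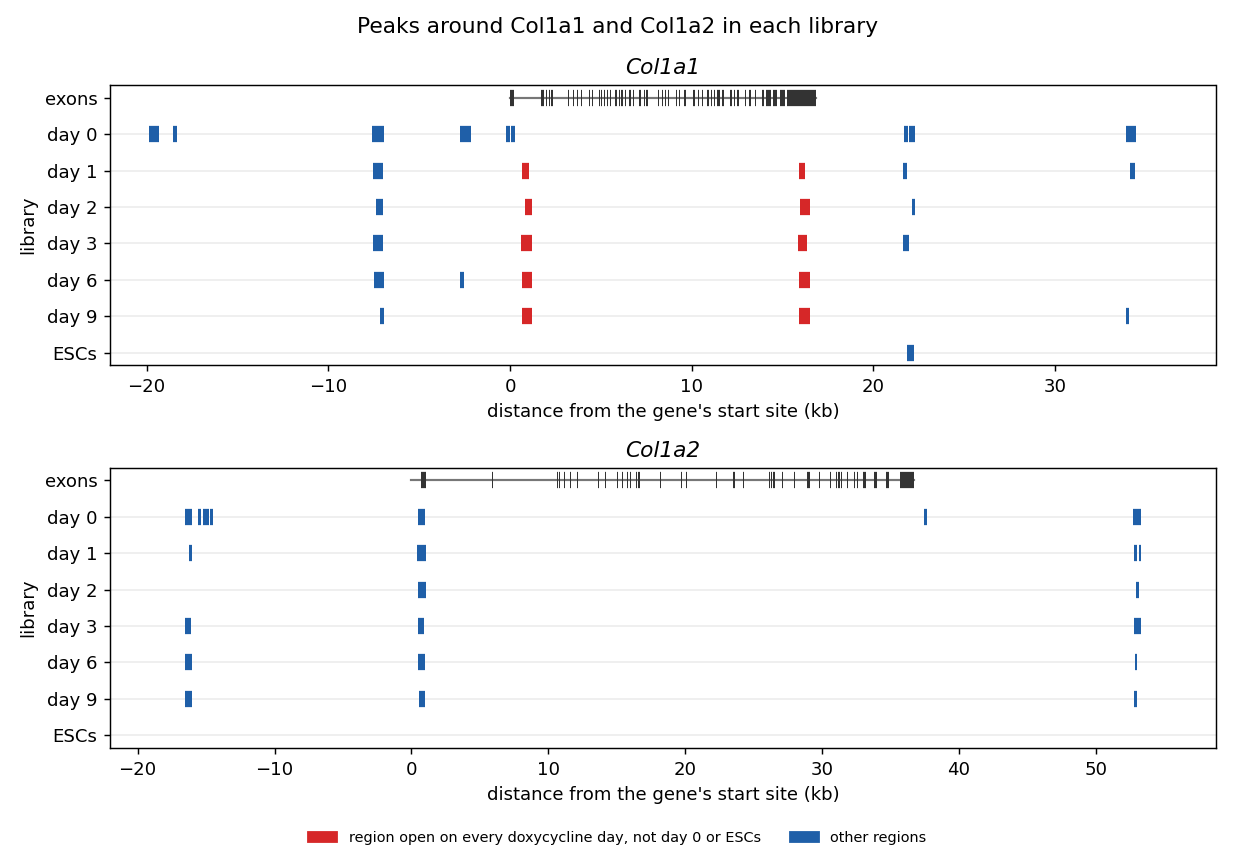
Peaks around *Col1a1* (top) and *Col1a2* (bottom) by distance from the start site in kb (x axis), 1 row per library under a row of exons, each bar spanning a peak. Red bars mark the regions called on every doxycycline day and in neither day 0 MEFs nor ESCs, 2 in *Col1a1* at 0.908 and 16.2 kb and none in *Col1a2*, and blue bars mark the others.

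Another *Col1a1* feature was kept by every MEF library. The region chr11:94928626-94929314, 7254 bp before the start, was 657 bp wide on day 0 and 545, 414, 535, 554 and 265 bp over the doxycycline days in order, and was not called in ESCs. The 1 *Col1a1* peak of the ESCs was 389 bp wide and was centred 22037 bp after the start site, past the end of the gene, in a region also called on days 0, 1, 2 and 3. The ESC peak there did not overlap the day 1 peak, but did overlap peaks of days 0, 2 and 3. The remaining *Col1a1* regions were open on day 0 alone, 4 in number, or on day 0 and some doxycycline days, 2 in number.

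*Col1a2* showed the same thinning without new regions. All 7 of its regions were open on day 0, and 4 of them in that library alone, 3 of these between 15464 and 14597 bp before the start. A region 16296 bp upstream was 533 bp wide on day 0 and 251 bp a day later, was not called on day 2, and was 464, 522 and 468 bp wide on days 3, 6 and 9. A region past the gene end, centred 53028 bp after the start, was called in all 6 MEF libraries, at 560, 217, 236, 524, 200 and 235 bp. In the middle 300 bp of that region an octamer was found, the single one among the 66 collagen regions.

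The long type V genes held the largest number of regions and the most that came and went. *Col5a1*, a gene of 153 kb, had 16 regions, and 1 of them in an intron 50377 bp after the start was open in every MEF library, at 643 bp on day 0 and 206 to 303 bp on the doxycycline days. *Col5a2*, of 129 kb, had 11, among them an intronic region 10837 bp after the start with widths of 361, 333, 200 and 501 bp on days 0, 1, 2 and 3 and no peak afterwards. Its day 0 peak overlapped neither the day 1 nor the day 2 peak, and the day 3 peak joined them into 1 region. Regions seen on some doxycycline days alone numbered 18 among the other 7 genes and none at *Col1a1*. Such regions made up 27.3% of the 66, beside 27.4% of all regions near protein-coding genes, a share close to that of genes at large.

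The type VI loci kept several day 0 regions into the middle of the course. *Col6a3* had intronic regions at 5403 and 9022 bp after the start. In the first, the day 0 and day 1 peaks did not overlap each other and were joined by the day 3 peak. The second was 590, 598, 500 and 516 bp wide on days 0, 1, 2 and 3 and not called on days 6 and 9. A *Col6a2* region 10594 bp upstream was 539, 425, 203, 570 and 535 bp wide on days 0, 1, 2, 3 and 6 and not called on day 9. The widest peak of all 8 loci was a *Col6a1* peak of 1093 bp on day 0, 7047 bp upstream, where later peaks of 200, 293 and 340 bp were called on days 2, 3 and 9.

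**Figure D4:**
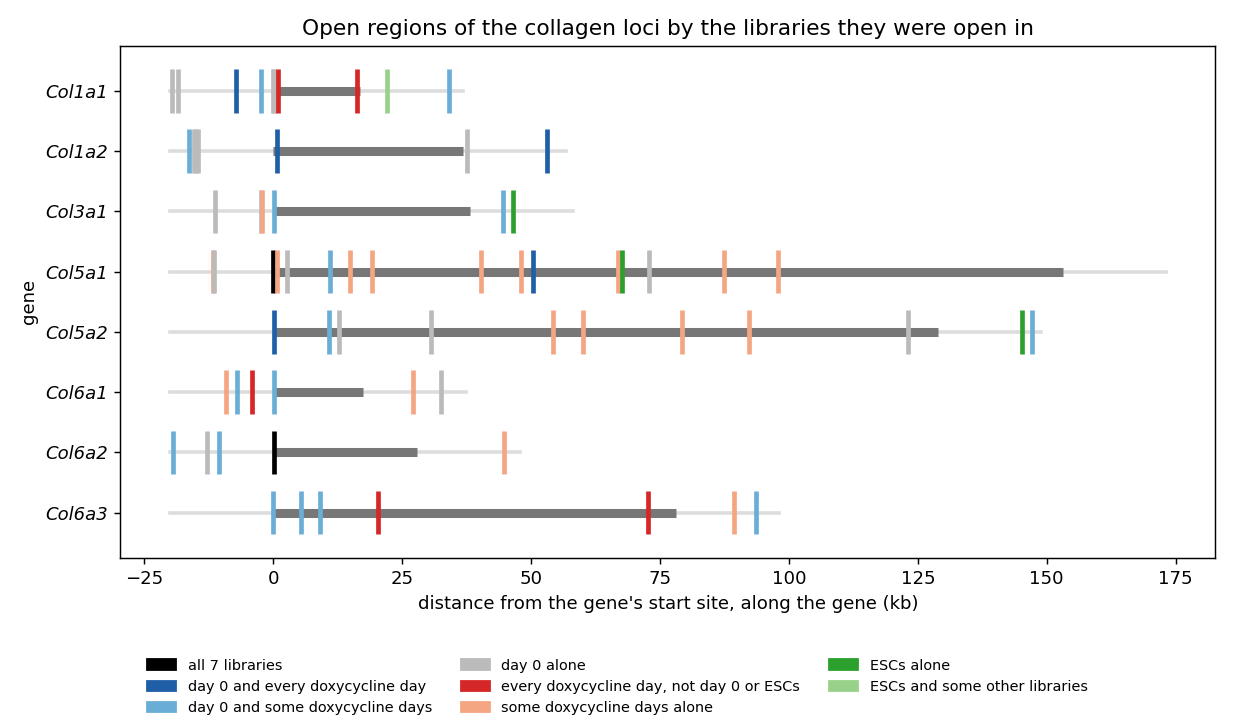
Open regions of the 8 loci by distance of their centre from the start site, along the gene, in kb (x axis), with the gene body in dark grey and the 20 kb flanks in light grey. The colour of each mark gives the libraries the region was open in, and red marks, open on every doxycycline day alone, are seen at *Col1a1* (2), *Col6a1* (1) and *Col6a3* (2).

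Sorted by pattern, the 66 regions had few that were open in all 7 libraries or in ESCs alone. The share open on day 0 alone was not far from the background. Only 2 regions (3.03%) were open in all 7 libraries, beside 12.6% of all regions near protein-coding genes, and only 2 (3.03%) were open in ESCs alone, beside 8.40%. Open on day 0 alone were 18 (27.3%, beside 22.2%), on day 0 and some doxycycline days 15 (22.7%, beside 15.5%), and on day 0 and every doxycycline day but not in ESCs 5 (7.58%, beside 5.22%). The 5 regions open on every doxycycline day alone made up 7.58%, beside the 2.72% given above.

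Of the 41 regions with a day 0 peak, 16 also had one on day 1, which is 39.0% (24.2 to 55.5%), beside 49.1% of the 44586 day 0 regions near protein-coding genes. On day 2 it was 13 regions, or 31.7% (18.1 to 48.1%), beside 39.5%, and on day 3 it was 19, or 46.3% (30.7 to 62.6%), beside 49.8%. These 3 shares lay below the background but their counting intervals contained it. On day 6 it was 14 regions, or 34.1% (20.1 to 50.6%), beside 48.5%, and on day 9 it was 12, or 29.3% (16.1 to 45.5%), beside 39.5%. In ESCs 3 regions, or 7.32% (1.54 to 19.9%), had a peak, beside 26.4%, and there alone the counting interval stayed below the background. In all these shares a later peak counted if it lay in the same joined region, even where it did not overlap the day 0 peak.

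*Col1a1* and the other genes could not be told apart in how many day 0 regions they kept. Of the 8 day 0 regions of *Col1a1*, 3 had a peak on day 1, 2 at each later doxycycline time-point, and 1 in ESCs. Of the 33 of the other 7 genes, 13, 11, 17, 12 and 10 had one over the doxycycline days in order, and 2 in ESCs. On day 3, where they were furthest apart, the shares were 25.0% (3.19 to 65.1%) and 51.5% (33.5 to 69.2%), and these intervals overlap widely.

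**Figure D5:**
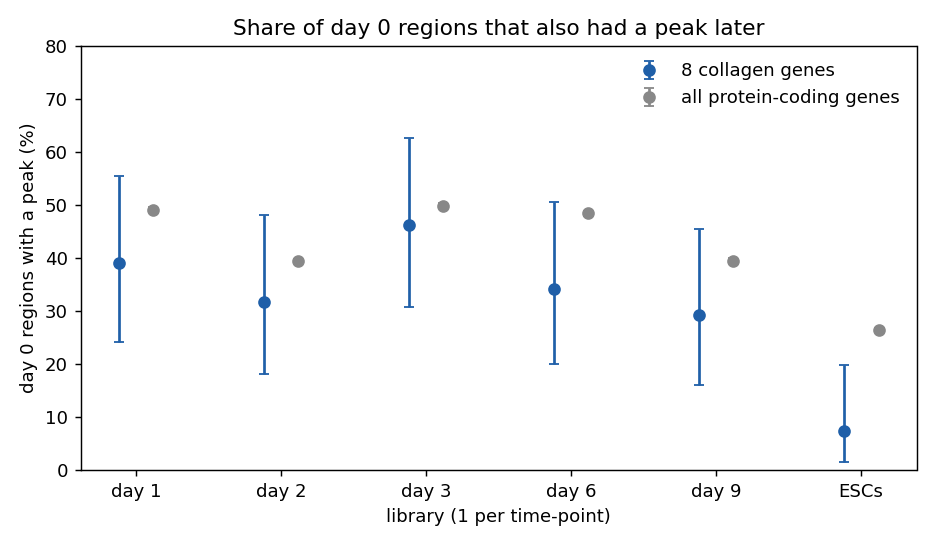
Share of day 0 regions, in percent (y axis), that also had a peak in each later library (x axis), for the 8 collagen genes (blue, 41 regions) and all protein-coding genes (grey, 44586 regions), with exact 95% intervals for counting error that are narrower than the symbol for the grey points. The grey point lies inside the blue interval for the 5 doxycycline days and above it in ESCs, 26.4% against 7.32%.

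Narrow and wide day 0 regions differed in how many had a peak under doxycycline. Of the 15 day 0 regions whose widest peak was under 300 bp, 2 (13.3%) had a peak on any doxycycline day, beside 37.3% of such regions near protein-coding genes, and 0 of 15 were open in ESCs. Of the 26 at 300 bp or more, 21 (80.8%) had one, beside 77.3%. Among these wider regions, 3 (11.5%) were open in ESCs, beside 39.8% near protein-coding genes. The share of wide collagen regions with a doxycycline-day peak was thus close to that of other wide regions, and their share in ESCs was lower, a difference that was not tested. With each library reduced to its 27074 widest peaks, 19 day 0 collagen regions were left, of which 2 (10.5%) were open in ESCs, beside 46.5% of 21659 day 0 regions near protein-coding genes.

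The markers of the cells themselves bear on how far these libraries can be read. Of 8 fibroblast markers, a promoter peak was found for 6 on day 0, for 6, 5, 5, 5 and 4 over the doxycycline days, and for 1, *Twist1*, in ESCs, while *Pdgfra* and *Prrx1* had none in any library. Of 8 ESC markers, 1 had one on day 0 and 1 or 2 on each doxycycline day, and in ESCs 1 had one, *Zfp42*. *Tfcp2l1*, the day 0 gene, was open in 5 of the 6 MEF libraries and *Dppa5a* on days 1, 2 and 3, and neither was in ESCs, while the defining genes *Nanog*, *Esrrb*, *Dppa4*, *Tdgf1* and *Sall4* had none in any library. Of 5 epithelial markers, 0 had one on day 0, 0 or 1 on each doxycycline day, and 1, *Cdh1*, in ESCs. The fibroblast marker windows took 7.02 of 10000 library peaks on day 0, 6.45 to 8.97 on the doxycycline days and 4.06 in ESCs, and the ESC marker windows 2.94, 1.82 to 3.33 and 6.28. The ESC library therefore differed in the direction of its label by window peaks, and by promoter peaks it lacked most of its defining markers. The part of a shift in cell makeup in the collagen values was not tested.

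The other genes of the pathway are given by role, and their promoter counts may be set beside the shares of all protein-coding genes above, from 54.5% on day 0 to 46.0% in ESCs. Of 25 genes for synthesis, folding, processing and cross-linking, 22 had a promoter peak on day 0, 17 to 20 on the doxycycline days and 18 in ESCs, and 13 had one in all 7 libraries, among them *Serpinh1*, the collagen chaperone, *Plod1*, *Plod2* and *Plod3*, the lysyl hydroxylases, and *P4ha1* and *P4ha2*, the prolyl hydroxylase subunits. Open in all 6 MEF libraries and not in ESCs were *Lox* and *Loxl3*, which cross-link collagen outside the cell. *P4ha3*, another prolyl hydroxylase subunit, had a promoter peak in ESCs and in no other library.

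Of 36 other collagen chains, 10 had a promoter peak on day 0, 6 to 11 on the doxycycline days and 4 in ESCs, and 21 had none in any library. *Col16a1*, a fibril-associated collagen, was open in all 6 MEF libraries and not in ESCs, as *Col1a2* and *Col5a2* were. The windows of the 36 chains together took 35.4 of 10000 library peaks on day 0, 32.0 to 34.3 on the doxycycline days and 17.0 in ESCs. In proportion this is a smaller step than that from 7.02 to 1.85 of the 8 genes described here. The ESC value of the 8 genes rests on 5 peaks, and the difference was not tested.

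Of 7 collagen receptors, 5 had a promoter peak on day 0, 4 to 6 on the doxycycline days and 1, *Itgb1*, in ESCs. *Ddr2*, a receptor tyrosine kinase for fibrillar collagen, and *Itga2*, the alpha chain of a collagen-binding integrin, were open in all 6 MEF libraries and not in ESCs. Of 10 matrix partners, 5 had one on day 0, 3 to 5 on the doxycycline days and 3 in ESCs, these being *Fn1*, *Thbs1* and *Tnc*, which were open in all 7 libraries. *Bgn* and *Dcn*, small proteoglycans that bind collagen fibrils, had a promoter peak on day 0 and none in ESCs.

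Among 2804 protein-coding genes with at least 10 regions in their window, the course of peak counts most like the summed course of the 8 collagens over the 7 libraries was that of *Myo1d* (Pearson r = 0.989), followed by *Cacna1c* (0.987), *Ano6* (0.986), *Lmntd1* (0.985) and *Cdon* (0.985). *Cacna1c*, for example, had 27 peaks on day 0, 24, 15, 23, 19 and 15 on the doxycycline days and 3 in ESCs. These points share the library totals, which fall in much the same way, and the median r of all genes compared was 0.75, with 108 genes at 0.95 or more. Of the 8 genes themselves, *Col1a2* (0.92) and *Col1a1* (0.91) followed the sum they are part of most closely and *Col3a1* (0.59) least.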

How the data were processed

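Accessible chromatin of 7 libraries, 1 per time-point, was profiled by ATAC-seq. Per the labels and the study's methods, the authors trimmed reads with Trimmomatic, aligned them to mm10 with Bowtie2 and processed them with SAMtools. They removed duplicates and downsampled all libraries to the same depth with Picard. Peaks were called per library with MACS2 without a fragment model, with reads shifted and extended by fixed lengths. The narrowest peaks therefore share a width. Versions of these tools and the depth after downsampling are not given in the sources used here. The deposited files hold peak coordinates (chromosome, start and end) with no score or signal, so peak heights were not analysed and the precision of a single call is unknown.

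Peaks were assigned to windows of the gene body plus 20 kb on each side (GENCODE M21), overlapping peaks (minimum overlap 1 bp) were merged across libraries, and a promoter was the 1000 bp on either side of the gene's start. Python 3.11.15, SciPy 1.17.1 and pysam 0.24.0 were used. The overlap code was tested on simulated data of 2000 regions, where it recovered 100% of the patterns. No test was possible between single libraries, and exact binomial intervals are at 95%. Sequences came from the mm10 reference (GRCm38) of RefSeq.

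The members and gene lists were chosen with earlier results of these data known. All 8 members were named, and from each list those genes with a promoter peak in all 6 MEF libraries and none in ESCs, or with one in ESCs and none on day 0, at most 5 each, together with the 5 genes whose peak counts had the highest Pearson r with the summed collagen counts. Other names beside counts were chosen after their values were seen. Windows, widths, overlaps and start-site definitions were varied as alternatives.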

Additional observations from a re-analysis of the deposited data

How the results depend on the processing

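Of 126 values computed under an alternative, 85 stayed within 1.5 times the reported count or within its counting interval, 41 moved and 0 were scored as reversed. Each value was a single count or share set beside its own main value, so changes of order between libraries were not scored. The counts of collagen peaks moved with the window and with the width of peaks. Without a flank they were 18, 20, 13, 21, 15 and 11 on days 0, 1, 2, 3, 6 and 9 and 2 in ESCs, so that day 0 was no longer the highest. With a flank of 5 kb they were 23, 22, 15, 23, 18 and 14 on those days and 3 in ESCs, so that day 3 equalled day 0, and with 50 kb 77, 53, 37, 52 and 45 on days 0, 1, 2, 3 and 6 and 8 in ESCs. With peaks at least 300 bp wide they were 26, 17, 12, 21, 16 and 9 on days 0, 1, 2, 3, 6 and 9 and 2 in ESCs, and with libraries cut to their 27074 widest peaks 19, 18, 21 and 17 on days 0, 1, 3 and 6. In the last setting day 3 passed day 0.

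Open promoters numbered 3, 2 and 2 on days 1, 2 and 9 and 1 in ESCs when the peak had to cover the gene's start, where 39.0, 34.9, 37.8 and 33.2% of protein-coding genes had one. Over the start of any annotated transcript, an alternative chosen after seeing the data, there were 3 on each of days 2 and 9 and 1 in ESCs. With peaks at least 300 bp wide there were 3 on day 9 and 1 in ESCs, and with the widest peaks 3 on day 9. When 50% of both peaks had to overlap, the share of day 0 regions kept was 17.1, 29.3 and 9.76% on days 2, 3 and 9. The ESC count was the lowest of the 7 under each of these window and width settings. Regions open on every doxycycline day alone numbered 2 at *Col1a1* under every alternative. At the other 7 genes they numbered 3, but 2 without a flank, with peaks at least 300 bp wide or with the widest peaks. With a flank of 50 kb they numbered 4. No paired analysis was possible because the design holds 1 library at every time-point, and for the same reason no replicate could be left out.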
